A study of Mus musculus with 24 samples.

Results

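The 8 genes described here encode interleukin-6 (Il6), leukemia inhibitory factor (Lif), interleukin-11 (Il11), interleukin-33 (Il33) and 4 members of the suppressor of cytokine signaling family (Socs1, Socs2, Socs3 and Cish). A probe set was taken as a member when the platform annotation gave it exactly 1 gene symbol and that symbol was one of the 8. This gave 12 probe sets of 22690 on the array, and 8 genes of 12393. The genes were chosen with their values in these arrays known, by label and by the order of the deposited columns, so their values are a description and carry no p-value.

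The arrays come from MLO-Y4 cells, a single mouse cell line with features of osteocytes and of mixed strain (C57B1/6, BALB/c and DBA2), grown on collagen-coated glass slides. Flow cells received oscillating fluid flow for 2 h at 1 Hz, reaching 10 dyn/cm2 of shear stress at its peak, and sham cells were held in static chambers of the same kind. RNA was collected at once (0 h) or after 2, 8 or 24 h in fresh medium, and each of the 8 groups (flow 0, 2, 8 and 24 h and sham 0, 2, 8 and 24 h) has 3 arrays, 24 in all. The labels do not say whether arrays of 1 group stem from separate cultures, and p-values then measure only a spread that may be technical.

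Interleukin-6, leukemia inhibitory factor and interleukin-11 are secreted cytokines that signal through receptor complexes containing the shared subunit gp130, encoded by Il6st. The complexes activate Janus kinases, which phosphorylate STAT transcription factors, above all STAT3, and STAT proteins in turn switch on Socs genes whose products shut the same receptors down. Interleukin-33 belongs to the interleukin-1 family, is stored in the nucleus and acts on cells that carry the receptor ST2. In bone, interleukin-6, leukemia inhibitory factor and interleukin-11 are known to act on osteoblasts and on the formation of osteoclasts.

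RefSeq promoter sequences of build GRCm38.p6 were matched for 7 of the 8 genes, all but Socs2, and were searched on both strands over the 250 bases before the start. Those of Il6, Lif and Socs3 and a short stretch at the Cish start are shown because they hold elements of the transcription factors named above or of factors tied to inflammation, and because Il6 and Lif varied together over the arrays. Capitals mark the matches. In Il6 (chr5:30012864-30013113, plus strand) they are an AP-1 element (TGANTCA) at -249 to -243 from the start, a C/EBP element (TTGCNNAA) on the minus strand at -128 to -121 and an NF-kB element at -44 to -35. In Lif (chr11:4257318-4257567, plus strand) the match is an AP-1 element at -228 to -222, and in Socs3 (chr11:117969367-117969616, minus strand) it is a STAT element (TTCNNNGAA) at -154 to -146. This Socs3 window lies within the span of the gene (chr11:117966079-117970336), so the start it precedes is inside that span and not at its outer end. Cish had no match before its start, and its 2 STAT elements lie just past it, at 1 to 9 and 12 to 20 (chr9:107296656-107296681, plus strand).
Il6: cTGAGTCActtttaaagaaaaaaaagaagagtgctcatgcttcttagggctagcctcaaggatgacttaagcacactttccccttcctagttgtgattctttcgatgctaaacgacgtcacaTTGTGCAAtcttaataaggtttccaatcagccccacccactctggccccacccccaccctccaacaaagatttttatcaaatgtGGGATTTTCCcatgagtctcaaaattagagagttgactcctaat
Lif: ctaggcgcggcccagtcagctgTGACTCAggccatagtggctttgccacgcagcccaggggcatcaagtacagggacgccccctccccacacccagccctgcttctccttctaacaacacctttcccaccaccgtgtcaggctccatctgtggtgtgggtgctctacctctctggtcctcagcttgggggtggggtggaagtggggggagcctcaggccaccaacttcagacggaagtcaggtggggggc
Socs3: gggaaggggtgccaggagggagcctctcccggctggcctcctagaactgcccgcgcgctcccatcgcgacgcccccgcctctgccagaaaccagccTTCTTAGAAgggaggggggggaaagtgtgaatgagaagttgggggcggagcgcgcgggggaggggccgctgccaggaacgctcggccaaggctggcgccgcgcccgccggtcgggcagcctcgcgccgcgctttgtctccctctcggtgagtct
Cish: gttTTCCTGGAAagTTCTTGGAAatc

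Of 32851 promoter windows, 7.02% held the STAT element before the start, 6.75% the AP-1 element, 9.56% the C/EBP element and 3.9% the NF-kB element. The second of 2 Il11 starts had an AP-1 element at -98 to -92, and the second of 2 Il33 starts had a C/EBP element at -85 to -78 and a TATA box (TATAAA) at -29 to -24. Socs1 had no match to any of the motifs searched. With the bases just after the start included, 8.3% of all windows held the STAT element and 0.457% held 2 or more, as Cish did. A match says only that these letters stand in the window.

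Values are log2 expression values on each array, so a difference of 1 is a 2-fold difference, and the level of one probe set cannot be set against that of another. On GRCm38.p6, Il6 lies at chr5:30013114-30019975, Lif at chr11:4257568-4272514, Il11 at chr7:4772373-4782907 and Il33 at chr19:29925113-29960718. Socs1 lies at chr16:10783808-10785536, Socs2 at chr10:95383903-95417321, Socs3 at chr11:117966079-117970336 and Cish at chr9:107296659-107302784. Il33 had the widest range of the 8 genes over the 24 arrays, with a lowest value of 5.43, a median of 7.67 and a highest of 9.25, followed by Il6 (5.20, 6.81 and 8.62) and Lif (6.53, 7.28 and 9.17). The ranges of Il11 (7.44 to 9.29), Socs1 (6.59 to 7.99), Socs3 (9.19 to 10.36) and Socs2 (6.97 to 7.86) were narrower. Cish, from 5.68 to 6.19, reached a log2 value of 6, the limit used for dim genes, on 6 of the 24 arrays. Lif, Socs2 and Socs3 had more than 1 probe set, and each gene is given by the brightest. A dim second Lif probe set lay below 6 on every array (4.17 to 5.50) and correlated with the bright one at r = 0.77, while the probe sets of Socs2 (r = 0.94) and of Socs3 (r = 0.95 to 0.99) followed each other closely.

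Equal labels did not always mean similar arrays. Over all genes, 16 of the 24 arrays had an array of their own label as the nearest one. By the order of the deposited columns, the nearest array was the neighbour in the pairs of columns 1 and 2, 3 and 4 and so on for 22 of the 24. These include all 16 arrays whose nearest array had their own label. The columns were also grouped by position into 8 column sets, each of 3 columns that stand 8 apart (columns 1, 9 and 17 are set 1), and no treatment is read from a position. The count for neighbouring columns does not by itself imply this spacing. With the neighbour column set aside, the nearest array lay in the same pair of neighbouring sets (1 and 2, 3 and 4 and so on) for 19 of the 24. Each set mixes arrays of 3 labels, and none of the 8 labelled groups lies within 1 pair of neighbouring sets. The labels may be attached to other columns than those they belong to, which was not tested, and every difference between flow and sham below holds only if they are not.

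On the labels, Il6, Lif, Il33, Socs1, Socs3 and Cish had their highest group mean on the flow 2 h arrays. At 2 h the flow mean exceeded the sham mean for 7 of the 8 genes, and the median of the log2 differences was 0.62 over the 8 genes and 0.00 over all genes. For Lif, Il33 and Socs3, all 3 flow arrays lay above all 3 sham arrays, and 9.16% of all 12393 genes did so at this time (18.4% were without overlap in either direction). No gene of the array passed an adjusted p of 0.05 at 2 h with limma over all genes, while 1681 genes, or 13.6%, had an unadjusted p under 0.05.

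Il33 had 8.69, 8.72 and 9.25 on the flow 2 h arrays, against 6.84, 7.11 and 8.00 on the sham 2 h arrays. The flow arrays were all above the sham arrays, with a mean of 8.89 ± 0.32 against 7.32 ± 0.61 under sham (SD, n = 3 each), a log2 difference of 1.57 (SE 0.57) or 2.97-fold. At 0 h the flow arrays had 8.03, 8.14 and 8.85 and the sham arrays 7.75, 7.59 and 7.78, again without overlap (0.63, SE 0.57), which 11.1% of all genes showed in the same direction. At 8 h Il33 had 5.43, 7.32 and 6.82 under flow and 7.88, 8.56 and 5.89 under sham, and at 24 h 7.95, 6.12 and 6.03 under flow and 7.25, 7.37 and 7.53 under sham. The groups overlapped at both times, with log2 differences of -0.92 and -0.68, and the 3 sham 8 h arrays alone spread over 5.89 to 8.56. The difference of the 3′ and 5′ probe sets of beta-actin, a sign of RNA quality, was 0.138 to 0.169 on the flow 2 h arrays and 0.191 to 0.262 on the sham 2 h arrays, and 0.224 to 0.244 on the flow 24 h and 0.150 to 0.203 on the sham 24 h arrays. In a fit that took this measure and its Gapdh counterpart as covariates, the 2 h difference of Il33 was 0.26, the 24 h difference was 0.47 and the 0 h difference was 1.89. The beta-actin measure did not overlap between flow and sham at 2 h or at 24 h. At those times such a fit cannot tell it apart from the labelled treatment, for Il33 or for the genes below.

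Lif had 8.48, 7.59 and 8.81 on the flow 2 h arrays, against 6.85, 6.85 and 7.26 on the sham 2 h arrays. The means were 8.29 ± 0.63 and 6.99 ± 0.24 (SD, n = 3 each), a log2 difference of 1.30 (SE 0.41) or 2.47-fold, and 1.27 with the RNA quality covariates. At 24 h the order was turned, with 7.38, 6.77 and 6.59 under flow and 7.94, 9.17 and 7.03 under sham, a difference of -1.14 with overlapping groups. The highest Lif value of the series was thus on sham 24 h replicate 2. With the covariates this difference was -1.07. At 0 h (0.12) and 8 h (-0.06) the labelled groups overlapped, and the 0 h difference was -0.08 with array weights and -0.16 on the dim second probe set. That probe set had 4.91, 4.61 and 4.57 under flow and 4.19, 4.46 and 4.31 under sham at 2 h, and its highest value, 5.50, was on the same sham 24 h array.

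Il6 had 8.62, 6.82 and 8.26 on the flow 2 h arrays, against 6.70, 6.41 and 7.21 on the sham 2 h arrays. Flow replicates 1 and 3 were above all sham arrays, replicate 2 was not, and the log2 difference was 1.12 (SE 0.58), or 1.31 with the RNA quality covariates. At 24 h Il6 had 7.15, 6.60 and 6.25 under flow and 7.36, 8.24 and 6.61 under sham (-0.74), and at 8 h 5.40, 6.86 and 6.81 under flow and 5.62, 6.66 and 6.14 under sham (0.22). At 0 h the 3 sham arrays alone spanned 5.20 to 7.81, wider than the flow arrays (6.09 to 7.38), and the difference was 0.17. With the covariates the difference was 1.09 at 0 h, -0.46 at 8 h, where the sign changed, and -0.83 at 24 h. The array with the highest Lif value also had an Il6 value of 8.24, close to the top of that gene's range.

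Il11 did not follow Il6 and Lif. At 2 h it had 8.87, 8.47 and 8.64 under flow and 8.95, 8.95 and 7.79 under sham, a log2 difference of 0.10 (SE 0.37), which was -0.20 with array weights and 0.56 with the RNA quality covariates. At 8 h the flow arrays (8.36, 7.63 and 7.46) were all below the sham arrays (8.94, 9.29 and 8.56), with a difference of -1.12, as for 5.89% of all genes in this direction. At 24 h the flow arrays (8.81, 8.95 and 8.75) were all above the sham arrays (7.44, 8.65 and 8.72), with a difference of 0.56, as for 13.5% of all genes, and the highest sham array lay just under the lowest flow array. At 0 h the flow arrays split, with 9.07 and 9.27 above the sham arrays (7.86, 8.17 and 7.70) and 7.87 among them. The covariates kept the direction of Il11 at 8 h (-0.98) and 24 h (0.17).

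**Figure D1:**
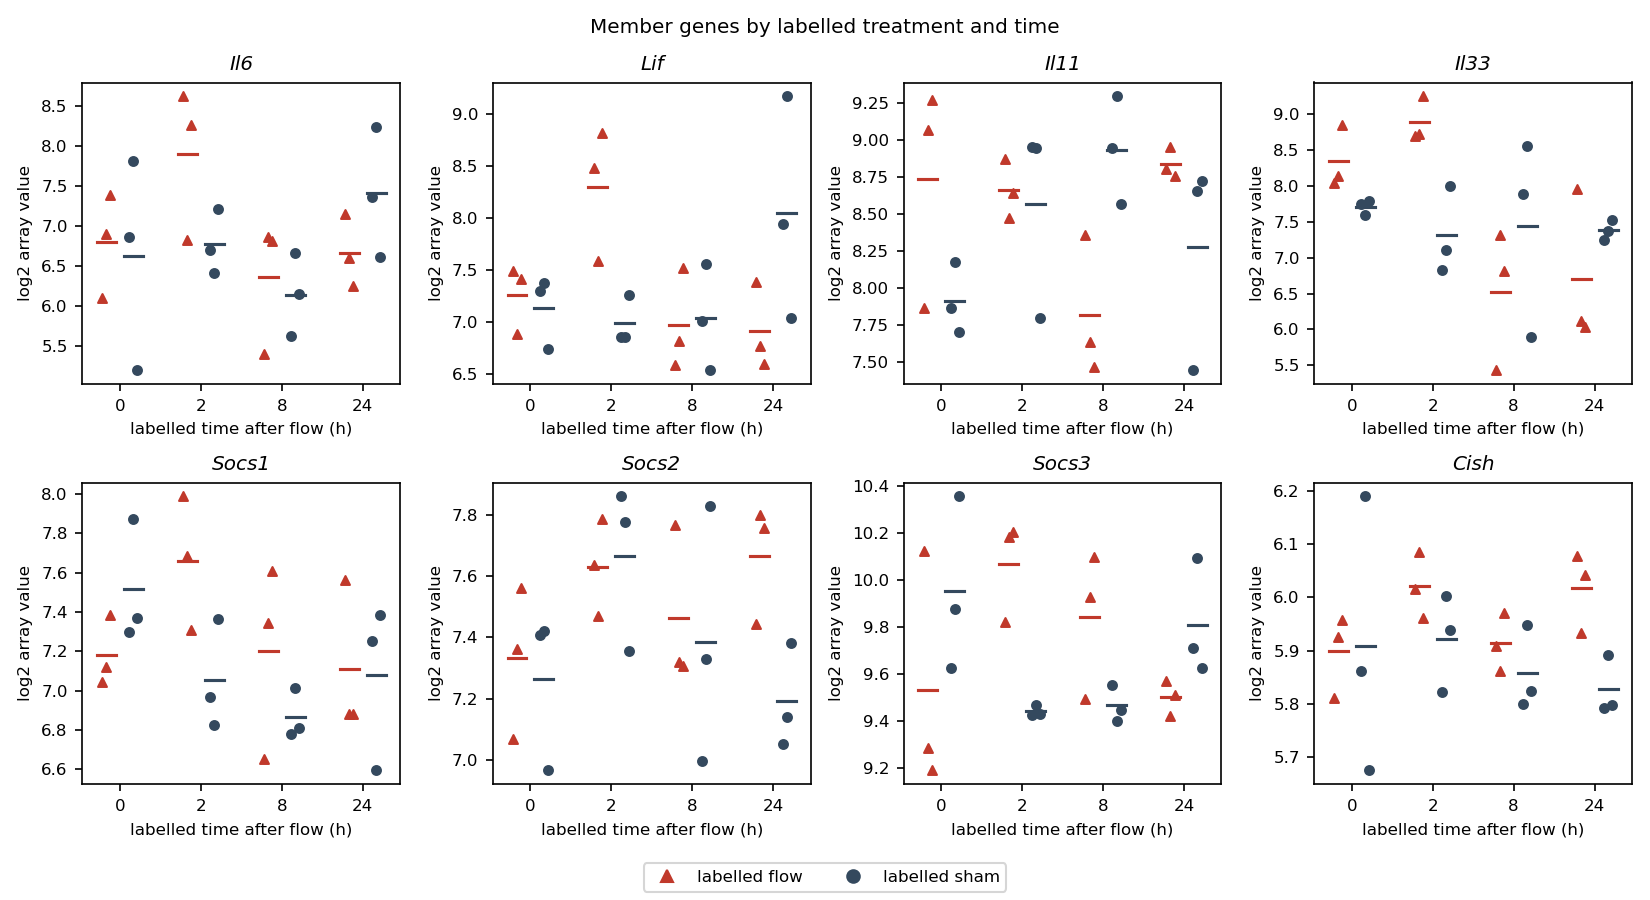
Log2 value of each of the 8 genes on each array against the labelled time after flow in hours, with flow arrays as triangles left of sham arrays as circles and bars for the means of 3. At 2 h the lowest flow array lies above the highest sham array for Il33 and Lif, and at 24 h the highest Lif value is on a sham array.

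Of the Socs genes, Socs3, which encodes the main inhibitor of signaling through gp130, had 9.82, 10.19 and 10.20 on the flow 2 h arrays, against 9.42, 9.47 and 9.43 on the sham 2 h arrays. The sham arrays lay close together and the flow arrays all above them, with a log2 difference of 0.63 (SE 0.21) or 1.55-fold. With the RNA quality covariates the difference was 0.41. At 24 h the flow arrays (9.57, 9.42 and 9.51) were all below the sham arrays (9.71, 10.09 and 9.62), a difference of -0.31 (-0.13 with the covariates), as for 6.29% of all genes. On 1 of the other 2 Socs3 probe sets the groups overlapped at 24 h, whereas at 2 h all 3 probe sets had the flow arrays above. The groups overlapped at 0 h, with 10.12, 9.28 and 9.19 under flow and 9.62, 9.88 and 10.36 under sham (-0.42), and at 8 h, with 9.49, 9.93 and 10.10 under flow and 9.55, 9.40 and 9.44 under sham (0.38).

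Socs1, whose product inhibits Janus kinases downstream of interferons, had 7.99, 7.69 and 7.31 on the flow 2 h arrays, against 6.97, 6.82 and 7.36 on the sham 2 h arrays. A single sham array, replicate 3, was above the lowest flow array, and the log2 difference was 0.61 (SE 0.25), or 0.28 with the RNA quality covariates. Without sham 2 h replicate 3 it was 0.77, and the number of the 8 genes without overlap at 2 h was 6 instead of 3 (5 without flow 2 h replicate 3). Fewer arrays overlap less often by construction, and the share of all genes was not counted with an array left out. At the other times the groups overlapped (-0.33 at 0 h, 0.33 at 8 h and 0.03 at 24 h). The covariates turned the 0 h difference to 0.22 and the 8 h difference to -0.03, and array weights turned that at 24 h to -0.09.

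Socs2, which restrains growth hormone signaling through STAT5, had 7.44, 7.80 and 7.76 on the flow 24 h arrays, against 7.05, 7.14 and 7.38 on the sham 24 h arrays. The groups did not overlap, with a log2 difference of 0.47 (SE 0.19), and the difference was 0.08 with the RNA quality covariates. At 0, 2 and 8 h it was 0.07, -0.04 and 0.08, and the covariates turned the 0 h value to -0.24 and the 2 h value to 0.42. Cish, another target and inhibitor of STAT5 signaling, had 6.08, 5.93 and 6.04 under flow and 5.79, 5.89 and 5.80 under sham at 24 h, without overlap but with a difference of 0.19 (SE 0.09), or 0.12 with the covariates, near the limit for dim genes. Its differences at 0 h (-0.01) and 8 h (0.06) were close to 0 and changed sign with the covariates. At 24 h 4 of the 8 genes were thus without overlap, Il11, Socs2 and Cish above and Socs3 below, where 19.8% of all genes were without overlap in either direction, and the median difference over the 8 was -0.14. At 0 h 1 gene and at 8 h 1 gene did not overlap, among 19.1% and 12.9% of all genes.

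By position of the columns, all 8 genes varied more between the column sets than between the labelled groups. The share of a gene's variance over the 24 arrays that lies between the 8 sets had a median of 67.2% over the 8 genes, against 45.7% between the 8 labelled groups. The share was highest for Socs3 (78.5% between sets and 50.5% between labelled groups) and Socs1 (74.6% and 43.3%), and lowest for Il6 (44.9% and 39.9%) and Cish (44.7% and 32.1%). Over all genes the medians were 47.9% between sets and 41.3% between labelled groups, and 65.5% of all genes also had the larger share between sets.

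**Figure D2:**
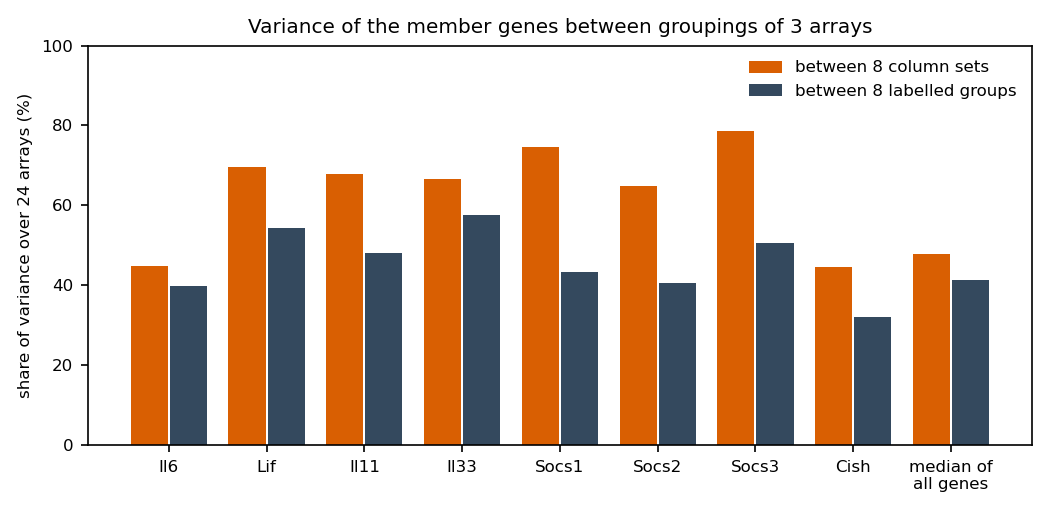
Share of each gene's variance over the 24 arrays, in percent, that lies between the 8 column sets (orange) and between the 8 labelled groups (dark blue), with the medians over all genes at the right. The share between sets is the larger one for 8 of 8 genes, with 78.5% for Socs3.

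Il33 was low and Socs2 high in column sets 7 and 8, both with some overlap with the other arrays. Those 6 arrays are labelled sham 2 h replicates 1 and 2, sham 8 h replicate 3, flow 8 h replicate 1 and flow 24 h replicates 2 and 3. Il33 had 6.84, 5.89 and 6.12 in set 7 and 7.11, 5.43 and 6.03 in set 8, with a median of 6.08, against 6.82 to 9.25 and a median of 7.92 on the other 18 arrays. A single array of the 18, flow 8 h replicate 3, lay below the highest of the 6, and the mean of the 6 less that of the 18 was -1.74. Socs2 had 7.86, 7.83 and 7.80 in set 7 and 7.78, 7.77 and 7.76 in set 8, against 6.97 to 7.79 on the other 18, with 1 of them, flow 2 h replicate 3, above the lowest of the 6. The 3′ and 5′ difference of beta-actin was 0.224 to 0.262 on these 6 arrays and 0.138 to 0.242 in sets 1 to 6, and its part in the values was not tested. None of the 8 genes had all 6 arrays above or all 6 below the other 18, which 5.07% and 2.44% of all genes had.

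Lif was also lowest in column sets 7 and 8, with 6.85, 6.53 and 6.77 in set 7 and 6.85, 6.59 and 6.59 in set 8, against 6.74 to 9.17 elsewhere, and 2 of the other 18 arrays lay below the highest of these 6. Lif was highest in set 4, with 7.48, 8.81 and 9.17, and in set 2, with 7.38, 8.48 and 7.51. In set 4, the arrays with 8.81 and 9.17 are labelled flow 2 h and sham 24 h, and they held the highest Lif values of the series.

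Socs3 was highest in column sets 3 and 4, with 10.36, 10.19 and 9.71 in set 3 and 10.12, 10.20 and 10.09 in set 4. The 6 arrays had a mean 0.55 above that of the other 18 (9.19 to 10.10), 4 of which lay above the lowest of the 6. Il11 was highest in sets 5 and 6, with 9.07, 8.94 and 8.72 in set 5 and 9.27, 9.29 and 8.81 in set 6, a mean 0.73 above the other 18 arrays. Socs3 had 9.28, 9.55 and 9.62 in set 5 and 9.19, 9.40 and 9.57 in set 6, and its mean was low in sets 5 and 6 (9.44) and in sets 7 and 8 (9.46) alike. On the other 2 Socs3 probe sets the mean was lowest in sets 7 and 8, at 7.43 against 7.55 in sets 5 and 6, and at 8.54 against 8.59. Socs1 was highest in set 2 (7.87, 7.99 and 7.61) and lowest in set 8 (6.82, 6.65 and 6.88), apart from its single lowest value, 6.59, in set 4.

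**Figure D3:**
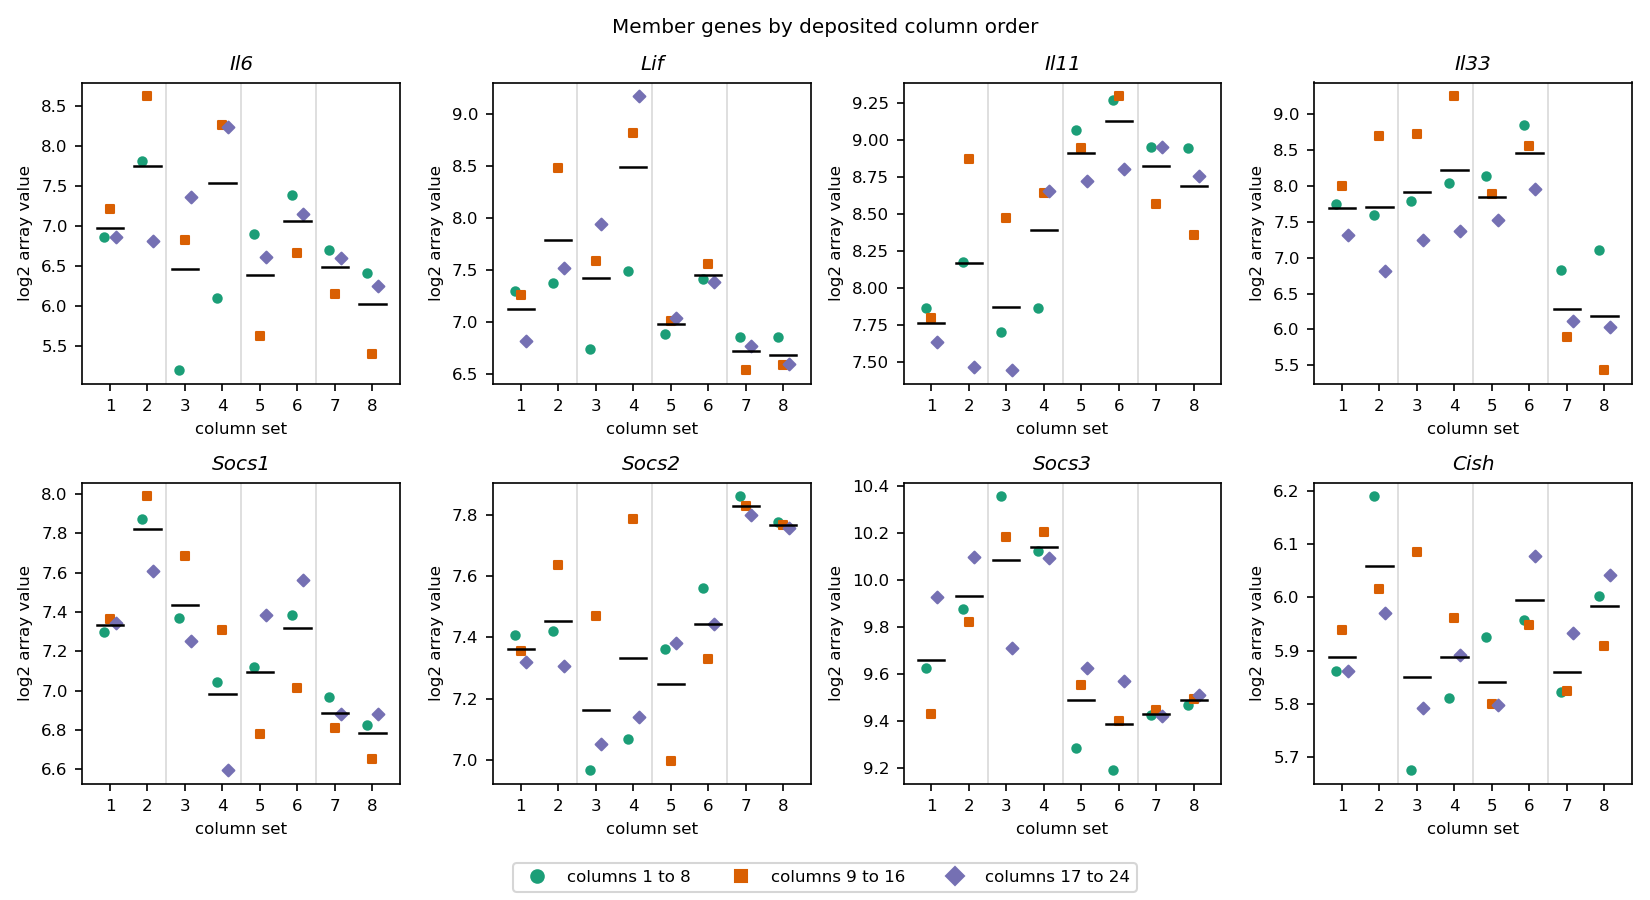
Log2 value of each of the 8 genes on each array against the column set, with circles, squares and diamonds for columns 1 to 8, 9 to 16 and 17 to 24, bars for the means of 3 and grey lines between pairs of neighbouring sets. Il33 is low and Socs2 high in sets 7 and 8, and Socs3 is high in sets 3 and 4.

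Within the first 3 pairs of neighbouring sets, 8, 7 and 7 of the 8 genes had a higher mean in the later set. Of all genes 52.8%, 46.2% and 58.5% did. Between sets 8 and 7 it was 2 of the 8, and 50.7% of all genes. Il6, Lif, Il11, Il33, Socs2 and Cish each had the higher mean in the later set of all of the first 3 pairs. Il11 differed by 0.41, 0.52 and 0.21 in them, and by -0.14 between sets 8 and 7. Shares of all genes were not computed for the counts of blocks that follow. Il6 differed by 0.77 between sets 2 and 1, by 1.07 between sets 4 and 3 and by 0.68 between sets 6 and 5, in 2, 3 and 3 of the 3 blocks of 8 columns, and by -0.46 between sets 8 and 7. Lif differed by 0.67, 1.07 and 0.48, each time in 3 of 3 blocks, and by -0.04 between sets 8 and 7. The 3 arrays of set 2 lay above the 3 of set 1 for Lif, Socs1 and Cish, which 7.77% of all genes showed, and those of set 6 above those of set 5 for Lif and Cish, which 6.21% did. Between sets 4 and 3 all 8 genes overlapped, where 8.92% of all genes did not overlap in either direction. Between sets 8 and 7 Socs3 was above (9.47, 9.49 and 9.51 in set 8 and 9.42, 9.44 and 9.42 in set 7) and Socs2 below, where 4.70% of all genes were above and 3.88% below. Those 2 differences were 0.06 and -0.06, and on the other probe sets of Socs3 and Socs2 the sets overlapped. The dim second Lif probe set overlapped in every pair of neighbouring sets.

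Il6 and Lif were the pair that varied most alike, with a Pearson r of 0.79 over the 24 arrays, which share the normalization of the table. Lif and Il33 (0.56) and Il33 and Socs1 (0.54) followed. Il11 and Socs3 ran most against each other (-0.56), and Socs2 ran against Socs3 (-0.42) and against Il33 (-0.33). These values describe the arrays, whose column sets the genes share, and carry no p-value. The genes most like Lif over all 12393 were Plscr1 (r = 0.92), Cxcl2 (0.91) and Cxcl5 (0.89), the last 2 encoding chemokines that attract neutrophils. Those most like Socs1 began with Ifit1 (0.85), an interferon-induced gene. Il33 was most like Adam8 (0.91), Socs3 most like Tubb2a (0.87), Socs2 most like Slc39a7 (0.87), Il11 most like Procr (0.89), Il6 most like Sash1 (0.84) and Cish most like Slc25a22 (0.73).

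**Figure D4:**
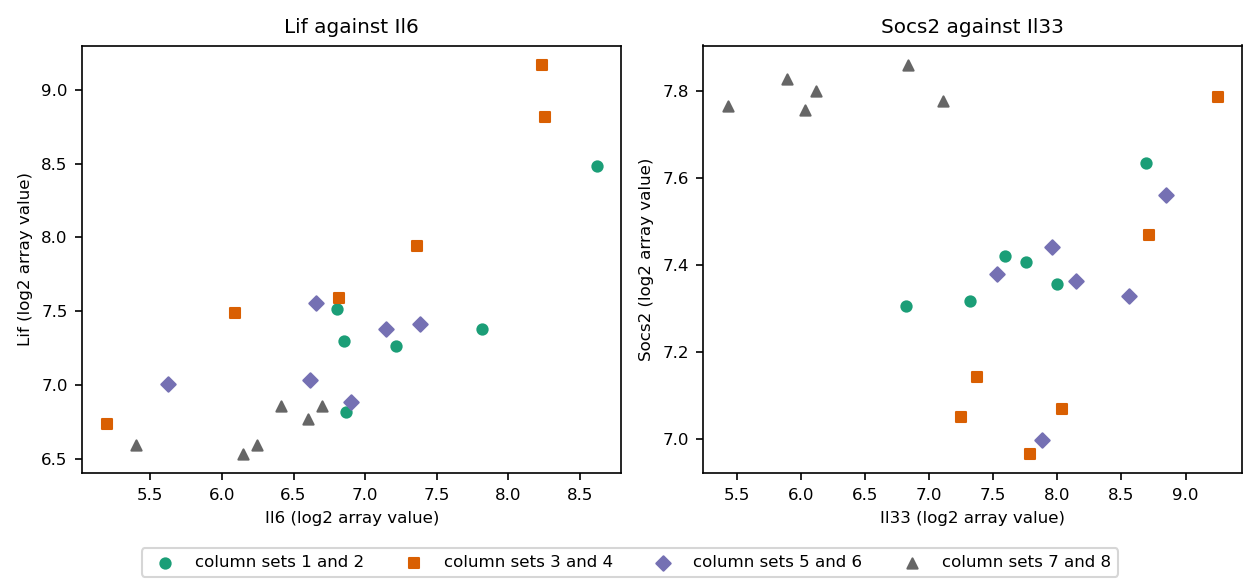
Log2 values of Lif against Il6 (left) and of Socs2 against Il33 (right), each point 1 of the 24 arrays, with colours and shapes for the pairs of column sets. Lif and Il6 rise together (r = 0.79), and the 6 arrays of sets 7 and 8 combine low Il33 with high Socs2.

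Neighbouring groups in the order of levels rarely differed by more than their spread. Ordered by mean, the 8 labelled groups of Il6, Lif, Il11, Socs1, Socs2 and Socs3 had no step between neighbours larger than the larger of their SDs. Il33 had 2 such steps, below flow 2 h (8.89 ± 0.32) and below flow 0 h (8.34 ± 0.44), and Cish had 1. In Lif the flow 2 h group (8.29 ± 0.63) was followed by sham 24 h (8.05 ± 1.07) and flow 0 h (7.26 ± 0.33), and in Socs3 flow 2 h (10.07 ± 0.22) was followed by sham 0 h (9.95 ± 0.37) and flow 8 h (9.84 ± 0.31), all SD with n = 3. By column set, Il33 had its single such step between set 1 (mean 7.69) and sets 7 and 8 (means 6.28 and 6.19), the lowest in the order.

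Of 93 other genes listed for the pathway, 78 were measured by a probe set with 1 symbol, and 0 passed an adjusted p of 0.05 with limma at any of the 4 times. Of all genes on the array 50.5% had a higher mean under flow at 2 h. Of 22 known STAT3 target genes, 16 did (median log2 difference 0.12), and 6 were higher and 0 lower at an unadjusted p under 0.05, where 5.99% of all genes were higher and 7.58% lower. At 24 h 11 of the 22 had a higher mean (median -0.02), 2 higher and 4 lower at the unadjusted threshold, where 9.80% of all genes were higher and 5.70% lower. Lcn2, which encodes the iron-sequestering protein lipocalin 2, had 8.73, 9.57 and 9.96 under flow and 6.45, 7.50 and 8.21 under sham at 24 h. By column set it was lowest in set 3 (5.65, 7.97 and 6.45) and highest in set 8 (9.53, 9.63 and 9.96), above its values in sets 1 to 6 apart from 9.62 in set 6. Fos, which encodes an AP-1 subunit, had 9.86 and 9.33 on sham 24 h replicates 1 and 2 and 5.99 on replicate 3, against 6.10, 5.97 and 6.00 on the flow 24 h arrays.

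None of the receptors passed the test. Of 8 measured receptors of the family and of interleukin-33, 4 had a higher mean under flow at 2 h, and their median difference was -0.00. Il6st had 9.35, 9.28 and 9.52 under flow and 8.90, 8.87 and 9.36 under sham at 2 h (0.34, SE 0.12, adjusted p = 0.345 from limma), with overlap because of sham replicate 3. Il6ra, the specific receptor chain of interleukin-6, stayed between 6.19 and 6.55 on all arrays, and Il1rap, the accessory receptor chain of interleukin-33, between 7.77 and 8.42. The receptor genes Il11ra1 and Il1rl1, which encodes ST2, had no probe set with 1 symbol. Clcf1, a cytokine of the same family, had 8.05, 8.03 and 7.93 under flow and 7.37, 7.47 and 7.56 under sham at 2 h (0.54, SE 0.20, adjusted p = 0.345 from limma), and, as for Lif, its lowest values lay in column sets 7 (7.37, 7.48 and 7.40) and 8 (7.47, 7.36 and 7.46).

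Among 10 Janus kinases and STATs, 3 had a higher mean under flow at 2 h (median -0.03). Stat3, the transcription factor downstream of gp130, ran from 8.92 to 9.82 and was highest in column set 2 (9.82, 9.54 and 9.80), as Socs1 was. Of 13 other inhibitors of the pathway, 9 had a higher mean at 2 h (median 0.14), and 6 had all 3 flow arrays above all 3 sham arrays, among them Socs5 and Socs7, as 9.16% of all genes had. Ptpn6, named here after its values were seen, had all 3 below, and 18.4% of all genes were without overlap in either direction. At an unadjusted limma p under 0.05, 0 of the 13 were higher and 1 was lower, where 5.99% of all genes were higher and 7.58% lower. Pias3, which encodes an inhibitor of STAT3, was at 7.09, 6.93 and 6.76 under flow and 7.39, 7.40 and 7.09 under sham (-0.36). Of 14 measured genes listed for the interleukin-1 family other than Il33, 10 had a higher mean at 2 h (median 0.04). The list also holds the signaling genes Myd88, Irak1 and Traf6 and the binding protein gene Il18bp. Of these, Myd88 (0.31) and Traf6 (0.01) were among the 10, and Irak1 (-0.19) and Il18bp (-0.26) were not. Il1r1, the interleukin-1 receptor, had 8.08, 7.60 and 7.83 under flow and 7.09, 7.24 and 7.78 under sham (0.47). Of 8 genes of the growth hormone and STAT5 axis, 7 had a higher mean at 2 h (median 0.14), 1 at 0 h (median -0.04), 8 at 8 h (median 0.11) and 3 at 24 h (median -0.12), where 53.0%, 52.6% and 54.4% of all genes did at 0, 8 and 24 h. The counts of several lists include dim genes, which lay below a log2 value of 6 on every array. In the interleukin-1 family these were Il1a, Il1b, Il1rn, Il1f6, Il1f9, Il1r2, Il18r1 and Il18rap. In the STAT5 axis they were Csf2rb (2.80 to 3.69), Gfi1 (2.87 to 3.34) and Igf1 (4.79 to 5.36). Among the receptors they were Lifr, Il27ra and Il31ra, among the Janus kinases and STATs Stat4, and among the STAT3 targets Lbp and Fgg. Icam1, among the STAT3 targets higher at 2 h at the unadjusted threshold, ran from 4.06 to 6.03. The lists were chosen with earlier results of these arrays known.

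**Figure D5:**
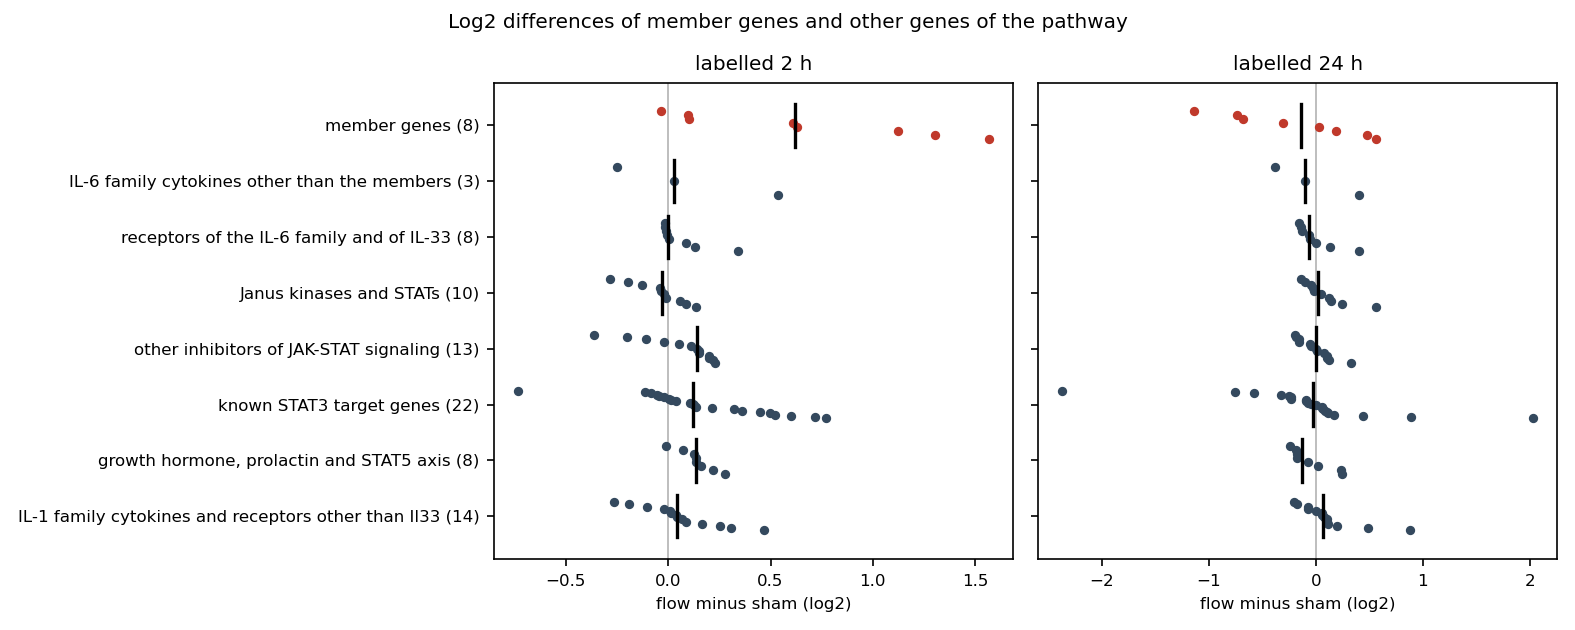
Log2 difference, flow minus sham, at the labelled 2 h (left) and 24 h (right) for the 8 genes (red) and for the measured genes of 7 pathway lists (dark blue), with a bar at the median of each list and the number of genes in brackets. At 2 h the median of the 8 genes is 0.62 and that of the STAT3 targets 0.12, and at 24 h they are -0.14 and -0.02.

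The cell type labels were checked against markers. Of 8 osteocyte markers, 4 (Dmp1, Sost, Mepe and Fgf23) lay below a log2 value of 6 on every array, while Pdpn, Gja1 and Cd44 lay above 11 on every array. Macrophage and other haematopoietic markers were mostly dim, with Ptprc, Adgre1, Cd68 and Itgam below 6 on every array, although Cd14 ran from 7.72 to 8.30. Of 6 endothelial markers 5 were below 6 on every array, as were 3 of 5 measured osteoblast markers (Alpl, Sp7 and Ibsp) and 1 of 5 fibroblast markers (Lum). The other 4 fibroblast markers were bright on every array, Pdgfra at 9.82 to 10.85, Pdgfrb at 8.75 to 10.62, Col3a1 at 11.30 to 12.87 and Dcn at 8.05 to 9.40, as were the osteoblast markers Col1a1 (7.50 to 8.53) and Col1a2 (12.01 to 12.38). On bulk arrays, fewer cells that express a gene and less RNA per cell cannot be told apart.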

How the data were processed

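RNA of MLO-Y4 cells was hybridised to 24 Affymetrix arrays, 3 in each of the 8 groups of the labels. The values deposited by the authors are on the log2 scale, made with RMA per the submitters' processing notes (version not given in the sources used here), which subtracts background, equalises the arrays' distributions and summarises each probe set. They ran from 2.02 to 14.11, with array medians of 6.71 to 6.80, and the number of arrays limits the precision.

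Of 22690 probe sets, 20380 had 1 symbol in the platform annotation. Each of 12393 genes was given by its brightest probe set. With limma 3.58.1 (R 4.3.3), a model of 8 group means was fitted to the 24 arrays, with Benjamini-Hochberg adjustment over all genes at 0.05, and was tested on simulated data. Other pathway genes were named for the widest range or the smallest p in their list, beside the receptors, and others for the highest correlation with one of the 8. The 8 genes, lists and rule were chosen with earlier results of these data known. Alternatives were other normalizations, moderation, weights, thresholds, RNA quality covariates, replicate blocks, all probe sets and the omission of single arrays. Counts of non-overlapping genes with an array omitted and the motif search past the start were added after seeing the data. The RNA-Seq experiment was not analysed here.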

Additional observations from a re-analysis of the deposited data

Results flagged for a closer look

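Il11 was below sham on all 3 flow arrays at 8 h and above sham on all 3 at 24 h, and the log2 difference at 24 h exceeded that at 8 h by 1.68. These directions held for 5.89% of all genes at 8 h and for 13.5% at 24 h. At 24 h the Il11 groups lay close, with 8.72 on the highest sham array and 8.75 on the lowest flow array. Socs3 was above sham on all 3 flow arrays at 2 h and below sham on all 3 at 24 h, and the log2 difference at 2 h exceeded that at 24 h by 0.94. Of all genes, 9.16% were above in this way at 2 h and 6.29% below at 24 h. On 1 of the other 2 Socs3 probe sets the groups overlapped at 24 h. Neither difference between times was tested, because the genes were chosen with these values known, and both rest on the labels.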

How the results depend on the processing

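The number of genes that passed an adjusted p of 0.05 with limma was 0 at each time, and an unadjusted p under 0.05 gave 1729, 1681, 1781 and 1921 genes at 0, 2, 8 and 24 h. Array weights gave 2330, 2312, 3151 and 2361. At 0 h all probe sets gave 1. At 2 h quantile normalization again, centring and the mean of all probe sets each gave 1, and an adjusted p under 0.1 gave 3. With 1 array left out the number ranged from 0 to 117 at 2 h (117 without sham 2 h replicate 3), from 0 to 672 at 8 h (301 without sham 8 h replicate 3 and 672 without flow 8 h replicate 1) and from 0 to 278 at 24 h (278 without sham 24 h replicate 3 and 2 without flow 24 h replicate 1), and stayed 0 at 0 h. The cause was not tested.

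Of the 8 genes, 1, 3, 1 and 4 were without overlap at 0, 2, 8 and 24 h. Of all genes, 19.1%, 18.4%, 12.9% and 19.8% were. With 1 array left out, a count chosen after seeing the data, the ranges were 1 to 3, 3 to 6, 1 to 4 and 4 to 7. Fewer arrays overlap less often by construction. The share of all genes was not counted with an array left out, so these ranges have no background to be set against. The highest counts were without flow 0 h replicate 1, sham 2 h replicate 3, flow 8 h replicate 1 and flow 24 h replicate 1. The count was 2 without flow 0 h replicate 2 or 3, sham 0 h replicate 2 or any single sham 8 h array, and 5 without flow 2 h replicate 3.

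Of the 32 differences between flow and sham (8 genes at 4 times), RNA quality covariates changed the sign of 8 (Il6 at 8 h, Il33 at 24 h, Socs1 and Cish at 0 and 8 h, Socs2 at 0 and 2 h), array weights of 4 (Lif and Cish at 0 h, Il11 at 2 h, Socs1 at 24 h), centring and the mean of all probe sets of 1 each, and quantile normalization again of 0. The covariates also moved 13 of the 32 differences by at least their SD within groups, and each other setting moved 0. The differences fitted with covariates are given without SE, and at 2 h and 24 h the beta-actin covariate did not overlap between flow and sham. With 1 array left out, 22 of 192 differences changed sign, and 13 of 192 between neighbouring column sets. The replicate block gave 0 genes at each time and changed no sign. Same-numbered arrays of flow and sham did not deviate together from the means of their labelled groups. Correlations ran from -0.346 to 0.192, with 2 of 12 pairs over 0.1. The paper describes its sham controls as paired. The correlations rest on the labels, so they cannot decide whether the numbers pair the samples.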
